A study of Mus musculus with 6 samples.

Results

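The hypoxia and glycolysis genes described here are 32 genes named one by one: the oxygen sensor genes, genes known to respond to low oxygen, the carriers of glucose and lactate, and the enzymes that turn glucose into pyruvate and lactate. They were found by gene symbol in a table of 55487 genes, on 33 rows, because the symbol Aldoa stands on a second, short row that is described with Aldoa. RNA-seq reads were counted in 6 subcutaneous tumors of CT26.WT, a colon carcinoma line derived from BALB/c mice (genotype WT in the labels). The control group (3 tumors) was given PBS, and the IFN-γ group (3 tumors) was given IFN-γ by tail vein injection, 100 µL of a 100 ng/ml solution once every 48 h. The hosts were immunocompetent male BALB/c mice bought at 4 weeks of age, and the age at tumor collection was not given in the sources used here. One cell line was used as the tumor model, and the whole tumor was sequenced, so host cells are part of every library. In such bulk samples, fewer cells of a type and less RNA per cell cannot be told apart. The study described mice in groups of 6, injected with the tumor cells under the skin of the upper right back. Whether each sequenced tumor came from its own mouse is not stated in the labels. The p-values set the group difference against the spread between these 6 tumors within their groups.

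Cells sense oxygen through prolyl hydroxylases, the products of the Egln genes, which mark the HIF-1α protein for destruction while oxygen is present. When oxygen is short, HIF-1α stays, pairs with its partner and binds short DNA motifs near genes for glucose uptake, glycolysis, lactate export, pH balance and vessel growth. Solid tumors are known both for poorly perfused regions and for a high rate of glycolysis when oxygen is present. Because HIF-1α is set mainly by protein breakdown, the level of Hif1a mRNA is not a measure of its activity.

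All 32 genes passed the filter on low counts. Levels are given as CPM, the counts scaled to a common library size after TMM normalization, and each tumor's value is listed in the order 1, 2, 3. Libraries held 15759300 to 17559680 counts, and a count of 0 would allow up to 0.190 CPM in the shallowest of them, counting error only. The 32 genes together took 0.766%, 0.713% and 0.743% of the counts in the control tumors and 0.794%, 0.725% and 0.905% of those in the IFN-γ group. IFN-γ tumor 3 held the largest share, and IFN-γ tumor 2 lay within the control range. This tumor 3 stood apart in cell type markers as well. Summed over 5 leukocyte markers, the 3 controls had 155, 221 and 207 CPM, and the IFN-γ tumors had 304, 288 and 125. Summed over 6 epidermis markers (skin keratin and envelope genes), IFN-γ tumor 3 had 69.9 CPM and the other tumors 2.75 to 12.3. Of 8 epithelial markers, Cdx2 was at 0 in all 6 tumors, Epcam was at most 0.93 CPM, Krt19 and Vil1 were likewise at most 0.40 and 0.29 CPM, and Krt20 made up most of the summed level at 113 to 271 CPM. Of 66 marker genes in all, 55 were tested and 0 were called, beside 0.0794% of all genes called higher and 0.0331% lower. In 7 of the 55 all IFN-γ tumors lay above every control and in 5 below, beside 7.62% and 7.5% of all genes tested. The 7 were C1qa and C1qb of the macrophage list and Adipoq, Plin1, Cidec, Lep and Cfd of the adipocyte list. The 5 were Cdh1 (epithelial), Mrc1 (macrophage), Cdh5 and Kdr (endothelial) and Ccnb1 (proliferation). Summed over 5 proliferation markers, the controls had 1799, 1912 and 1792 CPM and the IFN-γ tumors 1774, 1780 and 1638 CPM. The groups of Mki67, Top2a, Cdk1 and Pcna overlapped, and the part of proliferation in the members' values was not tested. The 6 adipocyte markers summed to 102, 103 and 144 CPM in the controls and to 143, 195 and 163 CPM under IFN-γ. Among them Adipoq, Plin1, Cidec, Lep and Cfd were higher in every IFN-γ tumor than in any control, at log2 fold changes of 2.05 to 3.30 and edgeR adjusted p-values of 0.074 to 0.21, larger changes than those of the members. Their part in the members' values was not tested.

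The first question was whether these genes differed between the IFN-γ group and the control group. The study reported that tumors of IFN-γ-treated immunocompetent mice grew faster and ended larger than those of control mice. The part of tumor size in the members' values was not tested. In the test over all 6 tumors (edgeR, adjusted p under 0.05), 0 of 32 members were higher and 0 were lower, where 0.0794% of the 15114 genes tested were higher and 0.0331% were lower. At an unadjusted p under 0.05, 7 members were higher and 0 were lower, beside 5.74% and 4.44% of all genes tested. The log2 fold change was above 0 for 29 of 32 members, beside 50.4% of all genes, and its median was 0.17, beside 0.0015 for all genes. It ran from -0.39 for Adm to 1.55 for Car9. The smallest adjusted p among the members was 0.23, for Bnip3. DESeq2 and the edgeR fit with no filter on low counts each called 3 members higher, Bnip3, Car9 and Pdk1, and 0 lower. In these fits, 0.801% and 0.558% of all genes tested were called higher and 0.443% and 0.261% lower. The calls for these 3 genes therefore depend on the tool and on the filter.

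**Figure D1:**
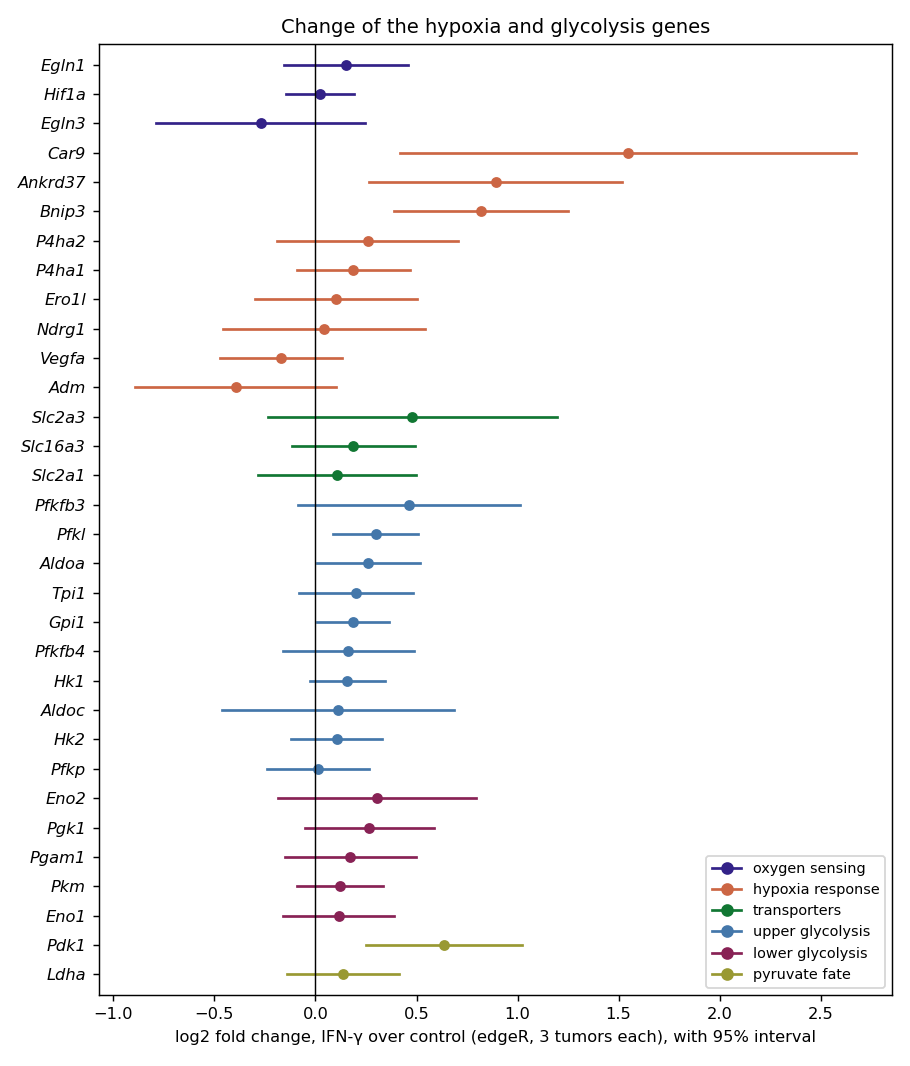
Log2 fold change of each of the 32 genes (horizontal axis, IFN-γ over control, edgeR, 3 tumors per group), colored by role, with the 95% interval as a line. Points lie right of 0 for 29 genes, and Car9, Ankrd37, Bnip3 and Pdk1 have the largest values, at 1.55, 0.89, 0.82 and 0.63.

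Without IFN-γ tumor 3, again 0 members were higher and 0 lower at an adjusted p under 0.05, although 2.46% of the 15487 genes then tested were higher and 0.723% were lower. The smallest adjusted p among the members was then 0.075, for Pfkfb3. The median log2 fold change of the members became 0.09, and 22 of 32 lay above 0. Among the genes whose 6 tumors showed no overlap of groups, Car9 then had 1.74 (edgeR adjusted p = 0.11), Bnip3 0.64, Ankrd37 0.64, Pdk1 0.51, Pfkl 0.23 and Gpi1 0.12, and Adm had -0.37 and Egln3 -0.33. Vegfa had -0.29 (edgeR adjusted p = 0.30). In lower glycolysis, Pgk1 had 0.15, Pgam1 0.10, Eno2 0.07, Pkm 0.04 and Eno1 -0.04, and Ldha had -0.00054. Of the others named singly, Slc2a1 had -0.14, Tpi1 0.03 and Hif1a 0.04.

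In 8 of the 32 genes, the values of the control and IFN-γ tumors did not overlap. In 6 of them, Bnip3, Ankrd37, Car9, Pdk1, Pfkl and Gpi1, all 3 IFN-γ tumors lay above every control, which was true of 7.62% of all genes. In the other 2, Adm and Egln3, all 3 lay below every control, which was true of 7.5% of all genes.

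**Figure D2:**
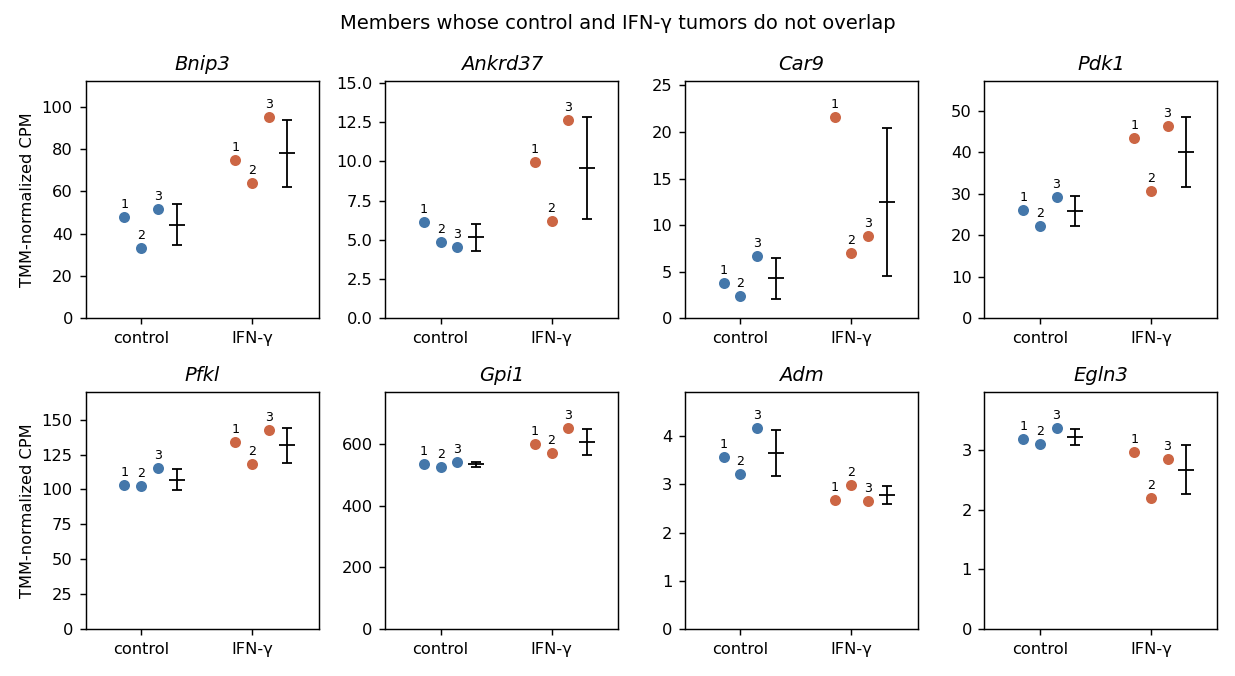
CPM (vertical axis, starting at 0) of the 8 genes whose groups do not overlap, in each control (blue) and IFN-γ (orange) tumor, numbered 1 to 3, with the mean and SD of each group in black. In the IFN-γ group tumor 2 has the lowest value of Bnip3, Ankrd37, Car9, Pdk1, Pfkl and Gpi1, and the highest value of Adm.

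The genes of the hypoxia response held both the highest and the lowest fold changes. Bnip3 (chr7:138890836-138909519, minus strand, mm10) encodes a mitochondrial outer membrane protein that takes part in the removal of mitochondria by autophagy. It had 47.7, 33.3 and 51.7 CPM in the controls and 74.8, 64.0 and 95.05 CPM in the IFN-γ tumors. The lowest IFN-γ tumor lay 12.4 CPM above the highest control. The means were 44.2 ± 9.65 CPM and 77.9 ± 15.8 CPM (SD, n = 3 each), and the log2 fold change was 0.82 (SE 0.19, 95% interval 0.39 to 1.25, edgeR adjusted p = 0.23). DESeq2 gave an adjusted p of 0.0035, and edgeR without a filter gave 0.0038. With IFN-γ tumor 3 left out, edgeR gave a log2 fold change of 0.64 and an adjusted p of 0.086.

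Ankrd37 (chr8:45996902-46005707, minus strand) encodes a small ankyrin repeat protein and is used as a marker of the response to low oxygen. It had 6.13, 4.85 and 4.51 CPM in the controls and 9.93, 6.17 and 12.6 CPM in the IFN-γ tumors. The groups were apart by 0.0428 CPM only, between control 1 and IFN-γ tumor 2, which is less than the level of 3 counts. On the log2 scale the groups differed by 0.89 (SE 0.27, edgeR adjusted p = 0.35).

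Car9 (chr4:43506966-43513729, plus strand) encodes carbonic anhydrase IX, a cell surface enzyme that helps to export acid and is a widely used marker of tumor hypoxia. It had 3.75, 2.37 and 6.69 CPM in the controls and 21.6, 7.02 and 8.78 CPM in the IFN-γ tumors. IFN-γ tumor 1 stood far above the other tumors, and IFN-γ tumor 2 was just above control 3. Its log2 fold change of 1.55 was the largest of the 32 genes and the least precise (SE 0.49, 95% interval 0.42 to 2.68, edgeR adjusted p = 0.36). It was 0.89 without IFN-γ tumor 1. DESeq2 gave an adjusted p of 0.038, and edgeR without a filter 0.031.

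Adm (chr7:110627661-110629820, plus strand) encodes adrenomedullin, a peptide that widens vessels. Its levels were 3.56, 3.21 and 4.17 CPM in the controls and 2.67, 2.99 and 2.66 CPM in the IFN-γ tumors, so this known HIF target was lower in each IFN-γ tumor than in any control. Its log2 fold change was -0.39 (SE 0.22, 95% interval -0.89 to 0.10, edgeR adjusted p = 0.59).

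Ndrg1, a stress-responsive gene linked to differentiation, had the highest level per length of the hypoxia response genes. It had 325, 260 and 231 CPM in the controls and 250, 209 and 382 CPM in the IFN-γ tumors. The highest and the lowest value both fell in the IFN-γ group, and the log2 fold change was 0.04 (edgeR adjusted p = 0.97). It was -0.25 without IFN-γ tumor 3.

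The remaining 4 genes of this role had overlapping groups. Vegfa, the gene of the main vessel growth factor, lay between 92.3 and 140 CPM, with its lowest value in IFN-γ tumor 2 and its highest in control 1 (log2 fold change -0.17, 95% interval -0.47 to 0.13). P4ha1 and P4ha2, which encode subunits of the collagen prolyl hydroxylases, had log2 fold changes of 0.19 and 0.26. Ero1l, which encodes an oxidase for disulfide bonds in the endoplasmic reticulum, had 0.10. Taking the 9 genes of the role together, 0 were called, 7 had a log2 fold change above 0, and the median was 0.19. In the endothelial cells that Vegfa acts on, 5 markers summed to 210, 267 and 262 CPM in the controls and 225, 193 and 170 CPM in the IFN-γ tumors, with 0 of the 5 called. Of the 5, Kdr and Cdh5 were lower in every IFN-γ tumor than in any control, which was true of 7.5% of all genes. Kdr encodes the main receptor for the Vegfa product, and Cdh5 encodes an endothelial cadherin. Their log2 fold changes were -0.58 and -0.39 (edgeR adjusted p = 0.30 and 0.35). The groups of Pecam1, Emcn and Tek overlapped, at log2 fold changes of -0.20, -0.25 and 0.00053. The part of endothelial cells in the Vegfa values was not tested.

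The starts of these genes were read for the core of the HIF binding motif, since HIF-1α acts through it. The RefSeq promoter windows (GRCm38.p6, the assembly also called mm10) run from 250 bases before to 50 bases after the start, and 30 of the 32 members matched an entry, Ero1l under the name Ero1a. The letters ACGTG or GCGTG were searched on both strands. CACGTG, an E-box that other factors bind, reads ACGTG on each strand and was counted once per strand. Of 41 windows of the members, 80.5% held at least 1 match, beside 43.8% of 32851 windows of all genes. For ACGTG alone the shares were 56.1% and 19.6%. The members' windows also had a higher GC content (median 64.7% against 52.7%) and more CpG pairs (median 21 against 7), and their part in these shares was not tested. The members include genes listed because they are known to respond to low oxygen, so the higher share is no independent result. The windows of all genes were not limited to the genes tested. The windows of the 4 hypoxia and glycolysis genes with the largest fold changes and of Adm, which had the lowest, are printed 5′ to 3′ on the gene's strand, with the matches on either strand in capitals.
Bnip3 (chr7:138909457-138909756, minus strand): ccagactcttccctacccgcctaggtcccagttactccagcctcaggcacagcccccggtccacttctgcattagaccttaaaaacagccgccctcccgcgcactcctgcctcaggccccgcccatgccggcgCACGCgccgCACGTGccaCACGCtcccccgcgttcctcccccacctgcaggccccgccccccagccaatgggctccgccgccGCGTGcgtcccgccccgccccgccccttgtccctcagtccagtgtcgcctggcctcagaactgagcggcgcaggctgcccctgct
Ankrd37 (chr8:45999801-46000100, minus strand): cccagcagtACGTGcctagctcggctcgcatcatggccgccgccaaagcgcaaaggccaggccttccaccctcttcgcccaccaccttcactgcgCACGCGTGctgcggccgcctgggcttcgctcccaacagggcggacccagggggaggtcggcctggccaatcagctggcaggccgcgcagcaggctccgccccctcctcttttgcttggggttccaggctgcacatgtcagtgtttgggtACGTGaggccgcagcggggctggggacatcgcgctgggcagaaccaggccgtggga
Car9 (chr4:43506776-43507075, plus strand): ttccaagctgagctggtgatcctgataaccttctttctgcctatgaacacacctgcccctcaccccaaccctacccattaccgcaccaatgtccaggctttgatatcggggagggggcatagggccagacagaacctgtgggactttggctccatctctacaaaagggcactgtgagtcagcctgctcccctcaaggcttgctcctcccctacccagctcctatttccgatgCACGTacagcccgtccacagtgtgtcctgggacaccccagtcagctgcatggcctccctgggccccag
Pdk1 (chr2:71872974-71873273, plus strand): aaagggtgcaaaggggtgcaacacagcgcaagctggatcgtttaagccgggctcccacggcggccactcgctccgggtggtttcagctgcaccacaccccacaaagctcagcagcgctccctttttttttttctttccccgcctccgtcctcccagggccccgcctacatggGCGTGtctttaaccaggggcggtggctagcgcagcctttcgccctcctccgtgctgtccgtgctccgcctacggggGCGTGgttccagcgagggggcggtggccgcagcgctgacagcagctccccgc
Adm (chr7:110627407-110627706, plus strand): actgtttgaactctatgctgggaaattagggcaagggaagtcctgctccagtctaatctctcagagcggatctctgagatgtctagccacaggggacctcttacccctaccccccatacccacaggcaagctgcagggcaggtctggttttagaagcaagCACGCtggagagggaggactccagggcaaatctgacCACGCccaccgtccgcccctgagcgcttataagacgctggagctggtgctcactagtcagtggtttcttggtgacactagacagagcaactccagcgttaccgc

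In the Bnip3 window, 5 matches lie from 117 to 35 bases before the start, and one pair of them is a CACGTG. Ankrd37 has 4 matches, Pdk1 and Adm have 2 each, and Car9 has 1, at 18 bases before the start. The capitals CACGC and CACGT are GCGTG and ACGTG read on the opposite strand. Pdk1 has a second window in RefSeq, at a start further downstream, which holds no match and is not printed. The RefSeq start of Ankrd37 lies inside the span given for the gene, whose upstream end belongs to a noncoding transcript in GENCODE. Over the 27 members with a match in at least 1 window, the log2 fold changes had a median of 0.16, and over the 3 without one, Gpi1, Tpi1 and Eno2, of 0.20. A match describes the letters of the window and is no measure of binding.

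Of the 3 oxygen sensing genes 0 were called, and Egln3 alone had groups that did not overlap. Hif1a had 156, 167 and 170 CPM in the controls and 162, 176 and 162 CPM in the IFN-γ tumors. The groups overlapped, and the log2 fold change was 0.02 (SE 0.074, 95% interval -0.14 to 0.19, edgeR adjusted p = 0.95), the most precise value among the members. Egln1, which encodes the main oxygen-sensing hydroxylase PHD2, lay between 77.8 and 113 CPM, with both ends of the range in the IFN-γ group (log2 fold change 0.15). Egln3, which encodes PHD3, had 3.19, 3.10 and 3.37 CPM in the controls and 2.96, 2.20 and 2.84 CPM in the IFN-γ tumors. All 3 IFN-γ values were lower, by a gap of 0.140 CPM, below the level of 3 counts (log2 fold change -0.27, SE 0.23, edgeR adjusted p = 0.75). The ratio of Egln1 to Egln3, per kilobase of exon sequence, was 19.3, 19.0 and 20.6 in the controls, against 23.4, 26.2 and 29.5 under IFN-γ. Of 8 ratios between related genes, this was the one whose groups did not overlap, and the mean difference was 0.38 on the log2 scale. For single genes, groups were separated in 7.62% (higher) and 7.5% (lower) of all genes tested. The ratio rests on 36 to 59 counts of Egln3 per tumor.

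Among the transporters, the glucose carriers Slc2a1 and Slc2a3 were highest in different tumors. Slc2a1 encodes GLUT1, the common carrier of tumor cells, and had 96.9, 84.2 and 84.8 CPM in the controls and 87.7, 74.3 and 124 CPM in the IFN-γ tumors. Its highest value was in IFN-γ tumor 3 and its lowest in IFN-γ tumor 2, and the log2 fold change was 0.11 (edgeR adjusted p = 0.88). Slc2a3 encodes GLUT3, which neurons and leukocytes also use, and had 4.25, 4.96 and 5.89 CPM in the controls and 7.95, 9.22 and 3.90 CPM in the IFN-γ tumors. IFN-γ tumors 1 and 2 lay above every control, and IFN-γ tumor 3 lay below every control. The log2 fold change was 0.48 (SE 0.31, edgeR adjusted p = 0.66), and without IFN-γ tumor 3 it was 0.76 (edgeR adjusted p = 0.096). The summed leukocyte markers had the same order of tumors at their ends, with IFN-γ tumors 1 and 2 highest and IFN-γ tumor 3 lowest, and their part in the Slc2a3 values was not tested. Per kilobase, Slc2a1 exceeded Slc2a3 by 16.7-fold in IFN-γ tumor 2 and by 65.9-fold in IFN-γ tumor 3, with the controls at 47.1, 35.1 and 29.8. Slc16a3, the gene of the lactate exporter MCT4, lay between 27.7 and 38.9 CPM with overlapping groups (log2 fold change 0.19, edgeR adjusted p = 0.69).

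All 10 genes of upper glycolysis, the steps from glucose to the triose phosphates, had a log2 fold change above 0, from 0.01 (Pfkp) to 0.46 (Pfkfb3), and 0 were called. Pfkl, the liver-type subunit of phosphofructokinase, the main control point of the pathway, had 104, 102 and 115 CPM in the controls and 134, 118 and 143 CPM in the IFN-γ tumors. The groups were apart by 2.53 CPM, and the log2 fold change was 0.30 (SE 0.091, 95% interval 0.09 to 0.51, edgeR adjusted p = 0.35). Pfkp, the platelet-type subunit, lay between 57.9 and 74.6 CPM with its lowest value in IFN-γ tumor 3, where Pfkl was highest. The ratio of Pfkl to Pfkp per kilobase was therefore highest in that tumor, at 4.95, against 2.97 to 3.70 in the other 5.

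Gpi1, which encodes glucose-6-phosphate isomerase, had 535, 526 and 543 CPM in the controls and 600, 571 and 653 CPM in the IFN-γ tumors. The controls differed little, and each IFN-γ tumor lay at least 27.8 CPM above them. This gave a log2 fold change of 0.19 (SE 0.077, 95% interval 0.01 to 0.36, edgeR adjusted p = 0.46).

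Pfkfb3 encodes an enzyme that makes the activator of phosphofructokinase. It had 21.3, 32.6 and 23.6 CPM in the controls and 43.5, 39.8 and 23.6 CPM in the IFN-γ tumors. As for Slc2a3, tumors 1 and 2 of the IFN-γ group lay above every control and tumor 3 did not. Its log2 fold change was 0.46 (SE 0.24, edgeR adjusted p = 0.56), and without IFN-γ tumor 3 it was 0.68 (edgeR adjusted p = 0.075). The related Pfkfb4 had a log2 fold change of 0.16.

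Tpi1, the gene of triosephosphate isomerase and the most abundant of upper glycolysis per length, had 872, 807 and 847 CPM in the controls and 875, 857 and 1168 CPM in the IFN-γ tumors. IFN-γ tumor 3 stood alone, while the other 2 IFN-γ tumors were close to the controls (log2 fold change 0.20, and 0.03 without IFN-γ tumor 3). Aldoa, the main aldolase gene of tumor cells, lay between 560 and 844 CPM, and its log2 fold change was 0.26 (edgeR adjusted p = 0.47). The second row with this symbol covers a locus just upstream (chr7:126800790-126809108) with 799 bases of exon sequence, against 2911 for Aldoa, and held 1.37 to 2.97 CPM. The groups of this second row did not overlap, at a log2 fold change of 0.81 (edgeR adjusted p = 0.36). Aldoc, the brain-type aldolase gene, lay between 2.65 and 4.21 CPM. Hk1 and Hk2, the hexokinase genes of the first step, had log2 fold changes of 0.16 and 0.11, and their ratio per kilobase stayed between 1.73 and 2.16.

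In lower glycolysis, the steps from the triose phosphates to pyruvate, each of the 5 genes had its highest value in IFN-γ tumor 3. Pkm, the gene of pyruvate kinase M, had 2094, 1939 and 1851 CPM in the controls and 2078, 1965 and 2361 CPM in the IFN-γ tumors. Only IFN-γ tumor 3 lay above every control (log2 fold change 0.12, SE 0.093, edgeR adjusted p = 0.72). Pgk1, which encodes phosphoglycerate kinase, had 114, 111 and 148 CPM in the controls and 147, 129 and 172 CPM in the IFN-γ tumors. Control 3 reached the level of IFN-γ tumor 1, and the log2 fold change was 0.27 (SE 0.14, edgeR adjusted p = 0.56). Eno2, the enolase gene best known from neurons, had 55.5, 48.3 and 39.6 CPM in the controls and 59.6, 41.1 and 76.6 CPM in the IFN-γ tumors. It had the largest log2 fold change of this role, 0.31 (SE 0.21, edgeR adjusted p = 0.69), with IFN-γ tumor 2 inside the control range, but without IFN-γ tumor 3 it had 0.07, below Pgk1 at 0.15 and Pgam1 at 0.10.

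Pgam1, a phosphoglycerate mutase gene, lay between 57.3 and 87.4 CPM and had its highest control value in control 3, as 20 of the 32 members did. Of the rest, 9 were highest in control 1 and 3 in control 2, and the share over all genes was not computed. The 8 skeletal muscle markers, which include the glycolytic genes Eno3 and Pgam2, summed to 994 CPM in control 3. They summed to 223 and 302 CPM in the other controls and to 442, 566 and 246 CPM in the IFN-γ tumors. The part of the muscle markers in the members' values was not tested. Eno1, the main enolase gene, lay between 342 and 468 CPM. A near-identical gene, Eno1b, held 358 to 484 CPM, so that Eno1 took 48.7% to 50.3% of their summed reads in each tumor. How reads that match both genes were counted is not given in the sources used here, and the level of Eno1 is uncertain for that reason. Its log2 fold change was 0.12 and that of Eno1b was 0.11. Gapdh, the enzyme gene of the step between Tpi1 and Pgk1, is not among the 32 and has many processed copies. It was listed at only 303 to 476 counts per tumor, so its level here is likewise uncertain.

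At the end of the pathway, pyruvate is either reduced to lactate or burnt in mitochondria. Pdk1 (chr2:71873224-71903858, plus strand), which encodes a kinase that holds pyruvate back from mitochondria, had 26.2, 22.2 and 29.3 CPM in the controls and 43.5, 30.6 and 46.3 CPM in the IFN-γ tumors. All 3 IFN-γ tumors lay above every control, tumor 2 by 1.35 CPM. The fitted log2 fold change was 0.63 (SE 0.17, 95% interval 0.25 to 1.02, edgeR adjusted p = 0.29). DESeq2 gave an adjusted p of 0.045, edgeR without a filter 0.031. With IFN-γ tumor 3 left out, edgeR gave 0.51 and an adjusted p of 0.16. Ldha, the gene of lactate dehydrogenase A, had 1246, 1078 and 1298 CPM in the controls and 1234, 1193 and 1552 CPM in the IFN-γ tumors. Its groups overlapped, with IFN-γ tumors 1 and 2 inside the control range (log2 fold change 0.14, SE 0.12, edgeR adjusted p = 0.77).

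Across the 6 tumors, the members did not move as 1 block. IFN-γ tumor 3 had the highest value of 21 of the 32 genes, beside 22.0% of all genes tested, and control 2 the lowest value of 14, beside 18.8%. Relative to the control mean, the median difference over the members on the log2 scale was 0.17 in IFN-γ tumor 1, 0.06 in IFN-γ tumor 2 and 0.32 in IFN-γ tumor 3. For all genes it was within 0.0028 of 0 in each of these tumors. The genes fell into sets by which IFN-γ tumors lay above every control, a grouping made after the values were seen and described without a test. Besides the 6 genes above every control in all 3 tumors, 10 were above only in tumor 3. These were Slc2a1 and the enzyme genes Aldoc, Pgk1, Pgam1, Eno1, Pkm and Ldha, with Egln1, Ndrg1 and P4ha1. In 6 genes, Ero1l, Slc16a3, Hk2, Aldoa, Tpi1 and Eno2, tumors 1 and 3 were above and tumor 2 was not. In 5 genes, Slc2a3, Hk1, Pfkp, Pfkfb3 and Pfkfb4, tumors 1 and 2 were above and tumor 3 was not. P4ha2 was above in tumor 1 alone, and Hif1a and Vegfa fitted none of these sets. For the sets of 10, 6 and 5 genes and for P4ha2, the share over all genes was not computed. Whether the members exceed that share is therefore not known. A place in a set can also rest on a narrow margin. Tpi1 reached 875 CPM in tumor 1, while control 1 already had 872 CPM. The sum of the 7 macrophage markers also separated tumor 3, but not each marker did so. At 2138 CPM, the sum in tumor 3 stayed inside the control range of 2018 to 2224 CPM. It reached 2866 CPM in tumor 1 and 3134 CPM in tumor 2. For Adgre1, Csf1r, Cd68 and C1qc, tumors 1 and 2 exceeded every control and tumor 3 did not. Every IFN-γ tumor exceeded the controls in C1qa and C1qb and fell below them in Mrc1. The part of the macrophage markers in these sets was not tested.

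**Figure D3:**
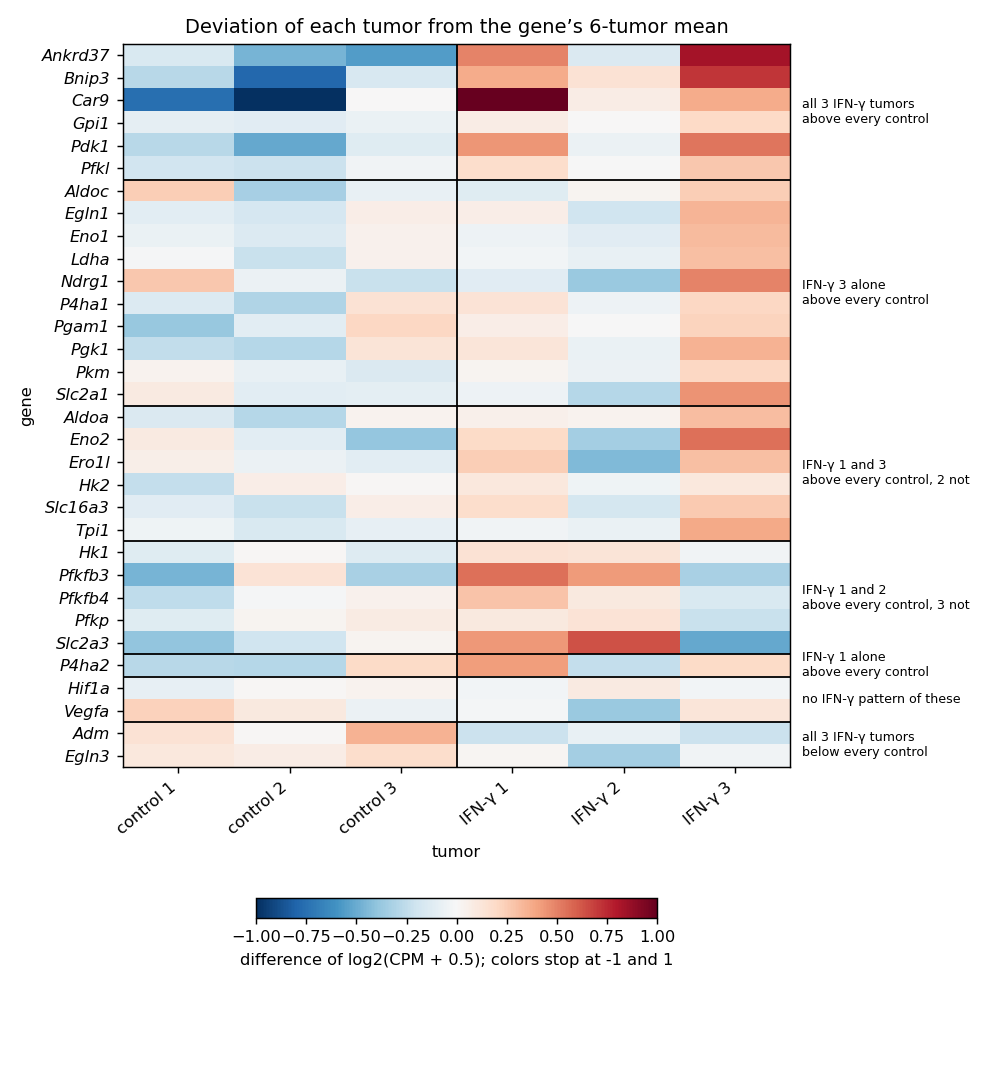
Difference of log2(CPM + 0.5) of each tumor (columns) from the gene's mean over the 6 tumors, for the 32 genes (rows), red above and blue below the mean, grouped by which IFN-γ tumors lay above every control. IFN-γ tumor 3 is the reddest column in the 10 genes above every control in that tumor alone and is blue in Slc2a3, Pfkfb3, Pfkfb4, Pfkp and Hk1.

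Levels between genes were compared per kilobase of exon sequence, as the mean over the 6 tumors. The order was led by Pkm at 409 CPM per kilobase, Ldha at 383, Tpi1 at 329 and Aldoa at 236, and Gpi1 followed at 88.6. Exon sequence was taken over all annotated transcripts of a gene, so the order also depends on that length. The place of Eno1, at 70.2, is uncertain because of the reads on Eno1b. The ranges of Pkm, Ldha and Tpi1 over the tumors overlapped, while Gpi1 lay below Aldoa in every tumor. Among isoform pairs, 1 gene dominated. The ratio per kilobase of Aldoa to Aldoc was 165 to 253, that of Eno1 to Eno2 was 5.32 to 8.56, and that of P4ha1 to P4ha2 was 6.40 to 8.92. Pfkfb3 and Pfkfb4 were close, at 0.669 to 1.08. The lowest levels per kilobase were those of Slc2a3 (0.832), Aldoc (1.07), Egln3 (1.11) and Adm (1.98), where the counts give less precise values.

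**Figure D4:**
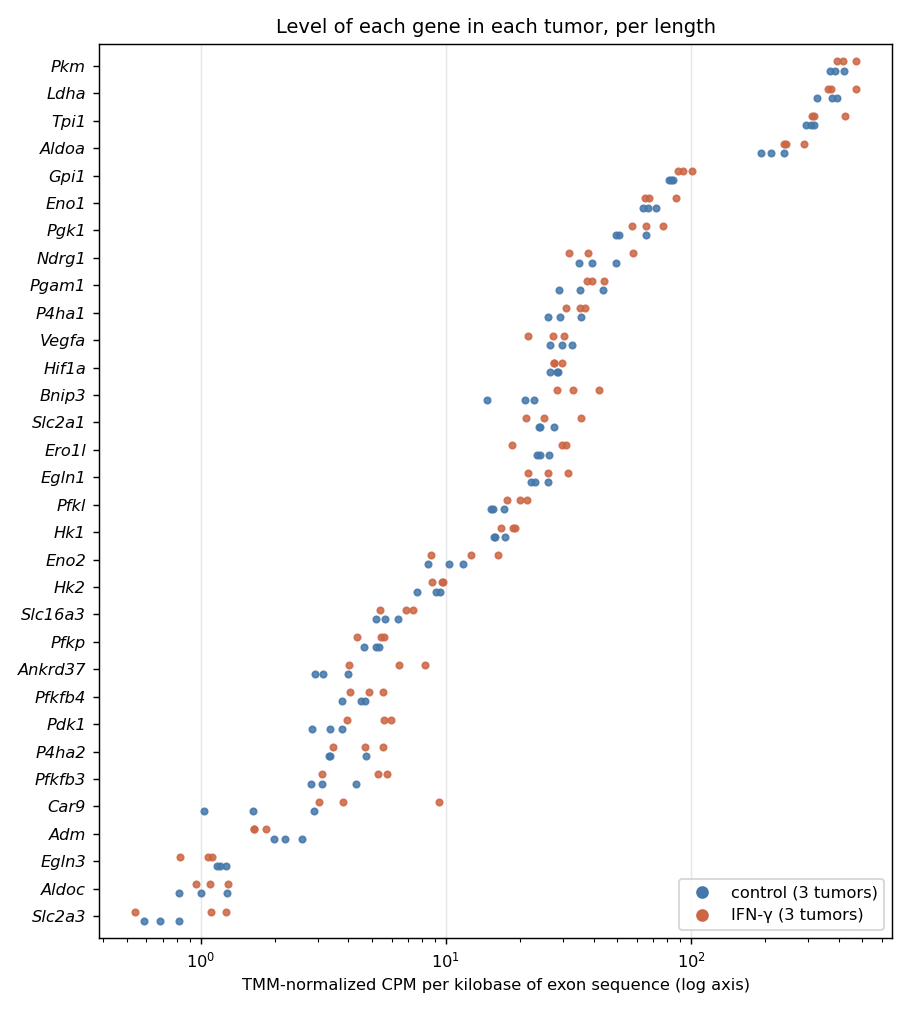
CPM per kilobase of exon sequence (horizontal log axis) of each of the 32 genes in each control (blue) and IFN-γ (orange) tumor, ordered by the mean. Levels run from Slc2a3, with a mean of 0.832, to Pkm, with a mean of 409, and for most genes the colors overlap.

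Other genes of the same pathways were taken from 5 lists of 76 genes in all, of which 71 passed the filter. Of these 71, 0 were called higher and 0 lower by edgeR, beside 0.0794% and 0.0331% of all genes tested. At an unadjusted p under 0.05, 12 were higher and 1 lower, beside 5.74% and 4.44%. The log2 fold change was above 0 for 50 (median 0.09), beside 50.4% of all genes (median 0.0015). Groups did not overlap in 14 with the IFN-γ tumors higher and in 1 with them lower, beside 7.62% and 7.5%. Among the other HIF targets, Bnip3l, the close relative of Bnip3 with a like role in mitochondrial removal, had a log2 fold change of 0.40 (edgeR adjusted p = 0.25), and Bhlhe40, a repressor that is also part of the circadian clock, had 0.43 (edgeR adjusted p = 0.27). Groups did not overlap in 8 of these 24 HIF targets, with the IFN-γ tumors higher in each, beside 7.62% of all genes. Bnip3l was called higher by DESeq2, and Bhlhe40 and Hk3 by edgeR without a filter. Without IFN-γ tumor 3, edgeR called Hk3 higher.

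In the HIF machinery (11 genes), Vhl, whose product removes HIF-1α, had a log2 fold change of 0.31 (edgeR adjusted p = 0.39). Epas1, which encodes HIF-2α, had -0.23, and Hif1an, which encodes the asparagine hydroxylase of HIF, had -0.11. Of 21 other glycolytic enzymes and transporters, the smallest p-values were those of Pgm1, Hk3 and Pfkm, at log2 fold changes of 0.31, 0.99 and 0.19. Hk3, a hexokinase gene of myeloid cells, had 23.1, 47.8 and 34.4 CPM in the controls and 80.9, 93.0 and 36.0 CPM in the IFN-γ tumors. As for Slc2a3 and the leukocyte markers, tumors 1 and 2 of the IFN-γ group were high and tumor 3 was not. Of 13 genes for the entry of pyruvate into mitochondria, Pdp1, whose product works against the Pdk kinases, had a log2 fold change of -0.21 with every IFN-γ tumor below every control (edgeR adjusted p = 0.39). Pcx, which encodes pyruvate carboxylase, and Pdk3 had 0.23 and 0.20. In the pentose phosphate pathway (7 genes), Tkt, Pgd and Rpia had 0.19, 0.13 and 0.15.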

How the data were processed

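The authors deposited 1 table of whole-number read counts per gene for the 6 tumors, not normalized, and no other column was present. The submitters' processing notes name HISAT2 and mm10. The counter, the annotation, the strandedness and the treatment of reads that match several genes are not given in the sources used here, so near-identical copies and overlapping genes are uncertain. Identifiers matched GENCODE M21 for 99.5% of genes, and coordinates and exon lengths come from it.

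The 32 genes, their roles, the 5 lists of related genes and the 11 marker lists were chosen with earlier results of these data known. Counts were tested with edgeR 4.0.16 (R 4.3.3) over all 15114 genes that passed its default filter: TMM factors, quasi-likelihood test, Benjamini-Hochberg adjustment, threshold 0.05, group as the only term. The scripts were tested on simulated data. DESeq2 1.42.0, limma 3.58.1 (voom), other scalings, other filters, a replicate block and fits that each dropped 1 tumor were alternatives. SE is the size of the log2 fold change over the root of F. Ratios by tumor used log2(CPM + 0.5). Values in each tumor are printed for genes past the threshold, for genes whose groups did not overlap, and in each role for the gene with the highest level per length, the largest fold change and the smallest p. Related genes are named by the 3 smallest p of their list, and 1 of them is not reported here. Eno1b, Gapdh and the tumor-by-tumor sets were chosen after their values were seen.

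Same-numbered tumors showed no common deviation from their group means (correlations -0.24, -0.0047 and -0.22), and numbers were not taken to pair tumors. Correlations of log2 CPM between tumors lay between 0.980 and 0.993, and no library looked like a copy of another.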

Additional observations from a re-analysis of the deposited data

How the results depend on the processing

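The 0 members called higher became 3 (Bnip3, Car9 and Pdk1) with DESeq2 and 3 (the same genes) with no filter on low counts, and the 0 related genes called higher became 2, 3 and 2 with DESeq2, with no filter and without IFN-γ replicate 3. With the replicate block 0 members were called in either direction, as with every other alternative run. Leaving out each tumor in turn gave 0 members called in every fit, and 0 to 2 related genes. The 17 genes called among all genes became 188 with DESeq2, 220 with no filter, 11 with library size only, 7 with the replicate block and 493 without IFN-γ replicate 3, and 6 to 11 without 1 of the other tumors.

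Of 462 alternatives for single log2 fold changes, 440 kept their sign and stayed past or short of the threshold, 6 passed it (Bnip3, Car9 and Pdk1) and 16 changed sign, in genes with a log2 fold change of 0.01 to 0.15 in all 6 tumors. Scaled by library size only, Hif1a had -0.010 and Pfkp -0.018, while the median of all genes shifted to -0.03 and that of the members was 0.14, with 27 above 0. Leaving out 1 tumor gave ranges of -0.036 to 0.30 for Aldoc, -0.0038 to 0.27 for Egln1, -0.038 to 0.19 for Eno1, -0.034 to 0.30 for Ero1l, -0.019 to 0.044 for Hif1a, -0.00054 to 0.20 for Ldha, -0.25 to 0.21 for Ndrg1, -0.054 to 0.11 for Pfkp and -0.14 to 0.26 for Slc2a1. The lowest of these came without IFN-γ replicate 3 for Egln1, Eno1, Ero1l, Ldha, Ndrg1 and Slc2a1. For Bnip3, Car9, Ankrd37, Pdk1, Pfkl and Gpi1 they stayed above 0. The cause of these changes was not tested. The fold changes of Adm, Egln3, Aldoc, Slc2a3, Ankrd37 and Car9, the members with the lowest CPM, rest on few counts.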
